A study of Oncorhynchus mykiss with 16 samples.

Results

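The transcripts described here come from primary rainbow trout preadipocytes, which are fat cell precursors grown out of adipose tissue. They were lower at days 15 and 21 of culture than at days 3 and 8. Their means at days 3 and 8 lay within 0.5 log2 units of each other. The transcripts are the targets of 150 of the 60195 array probes. A probe was eligible when it was well above background on every array of days 3 and 8 and its mean log2 values at these days lay within 0.5 of each other, which 25009 probes met. For each culture a score was taken as the lower of days 3 and 8 minus the higher of days 15 and 21, in log2 units of the deposited values, and the 150 probes with the highest score in the culture where they scored lowest became members. A small design set of 224 probes, which holds most of the readable gene names, was left out by this rule. The fall itself is therefore what chose the members and is given as a description without a test.

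The study followed 4 cultures, numbered 4, 8, 9 and 10 in the sample labels, each from the pooled visceral white adipose tissue of several rainbow trout (Oncorhynchus mykiss). The same 4 cultures were sampled on days 3, 8, 15 and 21, with 1 one-colour array per culture and day, so that n = 4 at each day. Cells were kept in growth medium with fetal bovine serum until they were confluent at about day 8, and then in differentiation medium with insulin, 3-isobutyl-1-methylxanthine (IBMX), dexamethasone and a lipid mixture. The study calls the cells mesenchymal stem cells at day 3, proliferated cells at day 8, committed preadipocytes at day 15 and mature adipocytes at day 21. No culture kept in growth medium to day 15 or 21 was among the arrays, so the change of medium and the time in culture cannot be told apart. Strain, sex and age of the fish were not used here.

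When a preadipocyte becomes an adipocyte, it leaves the cell cycle, takes on lipid-handling and hormone-sensing functions and lowers many transcripts of the growing, fibroblast-like state. Differentiation mixtures drive this switch from several sides. Insulin stimulates glucose uptake and lipid storage, IBMX blocks the breakdown of cyclic AMP, and dexamethasone activates the glucocorticoid receptor, while the lipid mixture supplies fatty acids, which fish cells need for visible fat droplets. In such a course a transcript that is flat during growth and lower after the mixture is added is separated from one that already declines as the cells approach confluence.

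None of the 150 members carried a gene name in the files, and none of their identifiers was found among the RefSeq accessions of the assembly USDA_OmykA_1.1. They are named by the identifiers of the array design, and no function is given for them. Of the members, 76 (50.7%) were contigs, whose identifiers start with TC, and 74 were single sequences or reads. Contigs made up 56.4% of eligible probes and 52.0% of all probes. Of the 254 symbols in the lists of pathway genes and cell type markers, 1 was spelled as a probe name, so neither the lists nor the markers of adipocytes, fibroblasts, leucocytes, endothelial cells and erythrocytes could be applied. In these bulk samples, fewer cells of a type and less RNA per cell cannot be told apart.

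Levels are given below as log2 of the background-corrected signal relative to the 75th percentile of the same array. On the 16 arrays, between 65.5% and 80.5% of spots were well above background, with day medians of 74.8%, 74.3%, 72.9% and 71.4% in order of day, and no spot was saturated. The arrays lay on 2 slides, and 1 of 42541 tested probes differed between slides at an adjusted p below 0.05 (limma). Slide 1 held 3 arrays of day 3 and 1 of day 8, and slide 2 held 1 and 3. Differences of day 3 alone or day 8 alone from another day are thus partly mixed with slide. The mean of days 3 and 8 and that of days 15 and 21 each drew evenly on both slides. The number of cultures limits the precision.

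Members started at ordinary levels and ended low. The median over members was -0.42, -0.62, -0.63 and -0.50 at day 3 in cultures 4, 8, 9 and 10, with a mean of -0.54 ± 0.10 (SD, n = 4). The day 8 medians were -0.74, -0.77, -0.86 and -0.50, with a mean of -0.72 ± 0.15. At day 15 it was -2.25, -2.26, -2.53 and -1.85, with a mean of -2.22 ± 0.28, and at day 21 -2.71, -2.55, -2.56 and -1.94, with a mean of -2.44 ± 0.34. Every day 15 and day 21 median lay below every day 3 and day 8 median, an order for which the rule chose the members within each culture. Culture 10 had the highest median at each of the late days. Over the 25009 eligible probes the median of the day means stayed between -0.77 and -0.71. Each level is relative to a percentile of its own array, so this median cannot show whether eligible probes stayed level. Of the eligible probes, 2706 had both late days above both early days in all 4 cultures, and 935 had both below. Both counts were made on the deposited values, which are scaled differently from the levels given here. The median late minus early difference over all tested probes was 0.06 on the deposited values and -0.03 on the levels given here. Nothing is therefore read from the excess of rising over falling probes. At day 3 the members' mean levels ranged from -4.51 to 6.86, with a median of -0.54. Those of the eligible probes, which include the members, ranged from -5.00 to 9.51, with a median of -0.71.

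**Figure D1:**
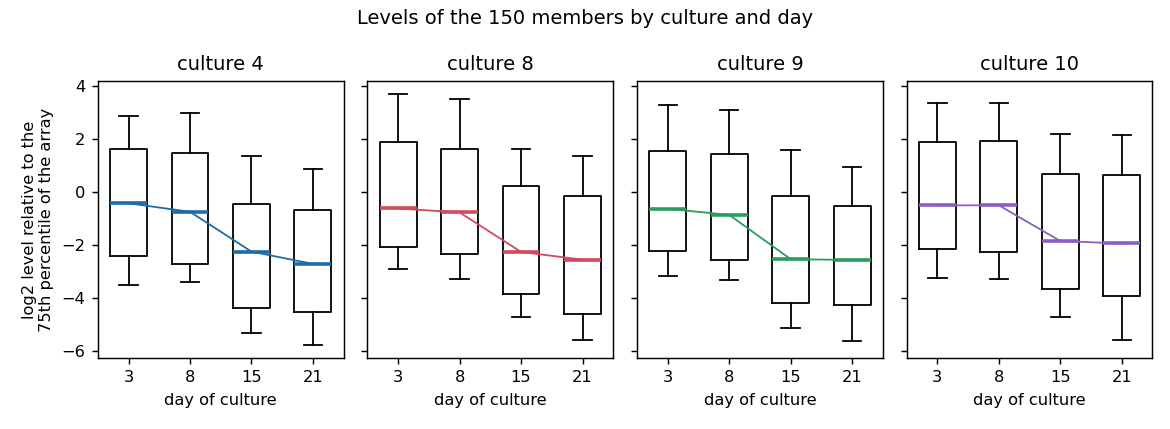
Log2 level of the 150 members relative to the 75th percentile of the array (vertical axis) by day of culture (horizontal axis), 1 panel per culture. Boxes span the quartiles, coloured bars are medians joined by a line, and whiskers reach the 10th and 90th percentiles; in culture 10 the medians at days 15 and 21 were -1.85 and -1.94.

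The mean of days 15 and 21 lay below the mean of days 3 and 8 by a median of 1.61 log2 units over the 148 members in the fit, which is a median ratio of 3.05 (range 1.87 to 40.2). The highest ratio, that of TC110269, includes late signals that were not well above background. The median difference over all 42541 tested probes was -0.03. The remaining pair, TC128674 and TC97743, had no value for culture 10 at day 8, where the scanner software marked their spots as outliers, and were left out of every fit. The deposited values, on which the rule chose members, lacked none, so the choice of this pair drew on a value left out elsewhere. With a ratio above 3 and an adjusted p below 0.02, limma called 955 probes (2.24%) lower in the late days, and 77 of the members were among them. The rule used this contrast, so nothing is read from that count. For 96 members all 8 late arrays lay below all 8 early arrays, against 1.53% of tested probes, a count that the rule also shaped.

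The rule counts the higher of days 15 and 21, so a member had to be low by day 15, the first sample after the change of medium, and the values of this step are a description. Day 15 was below day 8 by a median of 1.38 log2 units, and a median of 81.0% of each member's fall from day 8 to its lower late day had taken place by then (range 47.3% to 100%). At the same threshold 131 probes (0.308%) were called lower at day 15 than at day 8, 29 of them members, and nothing is read from that count. With slide as a block these counts were 102 and 24, and with culture as a block 282 and 45. They were 46 and 13 without culture 4, 8 and 3 without culture 8, and 5 and 3 without culture 9.

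Before the change of medium the rule limited only the difference between the means of days 3 and 8, and not that in each culture. Day 8 minus day 3 had a median of -0.20 over the 148 members in the fit, against -0.06 over eligible probes. The rule used the values of both days, which also lay unevenly on the slides, so this difference is a description. It was not shared alike by the cultures. In 31 members days 3 and 8 lay within 0.5 of each other in all 4 cultures. In 47 members they differed by over 1 log2 unit in at least 1 culture. The median of day 8 minus day 3 over members was -0.02 in culture 4, -0.27 in culture 8, -0.32 in culture 9 and -0.01 in culture 10.

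**Figure D2:**
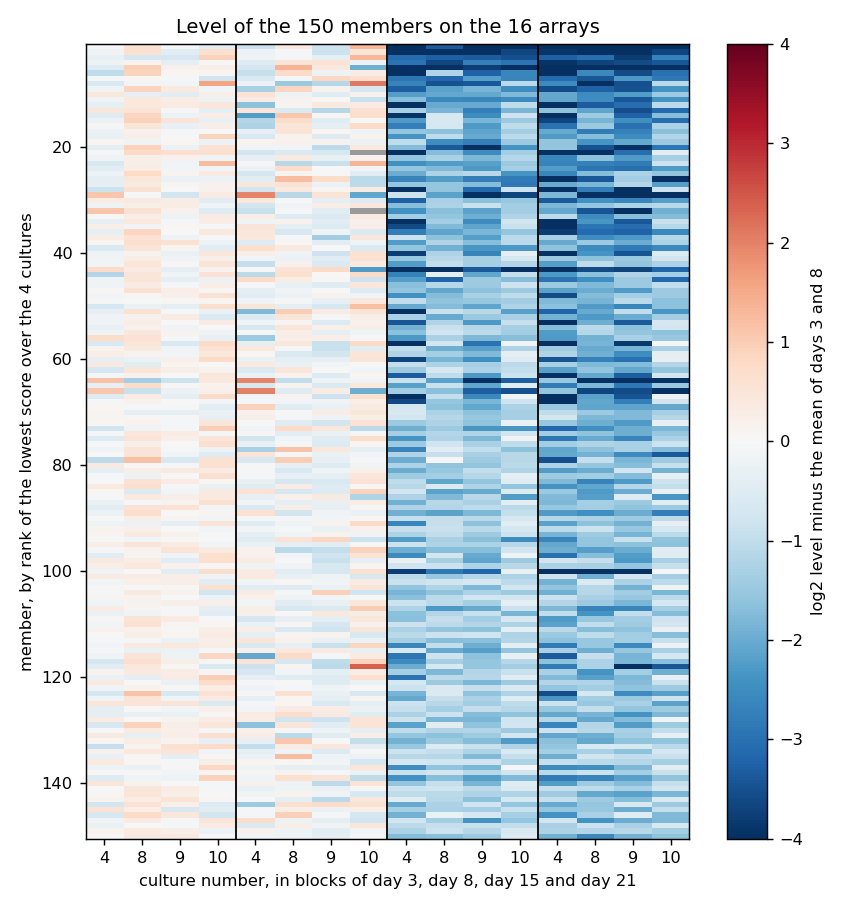
Log2 level of each of the 150 members (rows, ordered by rank of the lowest score) on the 16 arrays (columns, cultures 4, 8, 9 and 10 within days 3, 8, 15 and 21), minus the member's mean over days 3 and 8. Colours run from -4 (blue) to 4 (red) and larger differences take the end colour; grey cells are the 2 values missing at day 8 in culture 10, and the late blocks are blue, palest in culture 10.

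The scores spread over a wide range. The lowest score over the cultures ran from 0.41 to 3.59, with 23 members over 1 in all 4 cultures, 4 over 2 and 2 over 3. Culture 10 gave the lowest score for 74 members, culture 4 for 31, culture 8 for 28 and culture 9 for 17. The median score was 1.12 in culture 4, 1.06 in culture 8, 1.10 in culture 9 and 0.76 in culture 10. Of the eligible probes, 935 (3.74%) scored above 0 in all 4 cultures. The members thus form the upper end of a continuous series, and the limit cut through near-equal values. TC123792 (0.415) and TC113904 (0.410) were the last inside, and F6VG15V01D45L3.s.om.10 (0.410) and GAY7CUQ02J10LN.s.om.10 (0.409) the first outside.

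Among the 10 members with the highest lowest score, some dropped to the background on all or most late arrays and others stayed measurable. In between, TC100568 was at background in the late days only in culture 4 and TC102238 only in culture 8. TC110269, the first in rank, was at -1.81, -1.14, -1.81 and -2.19 at day 3 and at -2.62, -1.37, -2.58 and -0.42 at day 8 in cultures 4, 8, 9 and 10. It was at -7.35, -5.07, -7.58 and -7.76 at day 15 and at -6.96, -7.27, -7.64 and -6.94 at day 21. All late values lay below all early values, and of the late arrays only that of culture 8 at day 15 was well above background. For a probe not well above background on every array of a day, the fold is a lower bound, taken against the lowest signal that was well above background on each array (or the probe's own signal where higher). On this basis TC110269 was at least 11.6-fold lower at day 21 than at day 3.

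TC99244 showed the same kind of step from a high level and stayed well above background throughout. Its levels were 4.21, 4.95, 3.88 and 4.99 at day 3 and 4.11, 4.29, 3.47 and 4.82 at day 8. At day 15 they were -0.36, -0.38, -1.42 and 0.69, and at day 21 0.44, 0.22, 0.07 and 0.68. The groups did not overlap, and the late mean was 20.4-fold below the early mean. At day 21 it still lay above the 75th percentile of each array.

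BX878987.s.om.10, FYV3OTN01B2NVO.s.om.10 and BX908973.s.om.10 started low, and none of their arrays at days 15 and 21 was well above background. Together with CR363140.s.om.10 (rank 43) they are the 4 members with no array above background in the late days. At day 3 BX878987.s.om.10 ranged from -5.01 to -3.39 and at day 15 from -7.83 to -7.41, at least 1.84-fold lower. FYV3OTN01B2NVO.s.om.10 ranged from -4.08 to -3.57 at day 3 and from -7.37 to -6.47 at day 15, at least 2.98-fold lower. BX908973.s.om.10 ranged from -3.55 to -2.08 at day 3 and from -7.51 to -6.79 at day 15, at least 5.93-fold lower. The day 3 levels of all 3 lay under -2, in the dim part of the array.

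BX908973.s.om.10 was also unsteady before the change of medium in culture 10, with -2.80 at day 3 and -4.98 at day 8. CR363140.s.om.10 behaved alike, at -1.85 and -4.26 in culture 10, while its day 8 levels in the other cultures were between -1.99 and -1.17. Its day 15 levels were -6.14, -6.52, -5.33 and -7.78, at least 12.2-fold below day 3.

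The remaining members of the first 10 differed mainly in how alike the cultures were. FYV3OTN01AE29S.s.om.10 was among the most even, between -2.46 and -1.42 on the early arrays and between -4.48 and -3.42 on the late ones. TC102839 moved from between 0.09 and 1.71 to between -2.53 and -1.31, and TC131614 from between 1.61 and 3.78 to between -0.67 and 1.06. TC102238 kept culture 10 apart at every day, at -0.25, 0.29, -2.92 and -2.90 in order of day, while the other cultures ran from between -3.31 and -1.95 to between -5.80 and -4.36. Its early and late arrays overlapped across cultures although each culture fell. In culture 8 its arrays at days 15 and 21 were not well above background.

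TC100568 fell most in culture 4. It was at -1.34, 0.56, -0.24 and -0.21 at day 3 and at -1.25, 0.47, -0.52 and -0.04 at day 8. At day 15 it was at -6.04, -1.53, -3.56 and -2.93, and at day 21 at -6.13, -2.89, -3.91 and -3.29. Culture 4 was the lowest at each day and was not well above background at days 15 and 21.

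**Figure D3:**
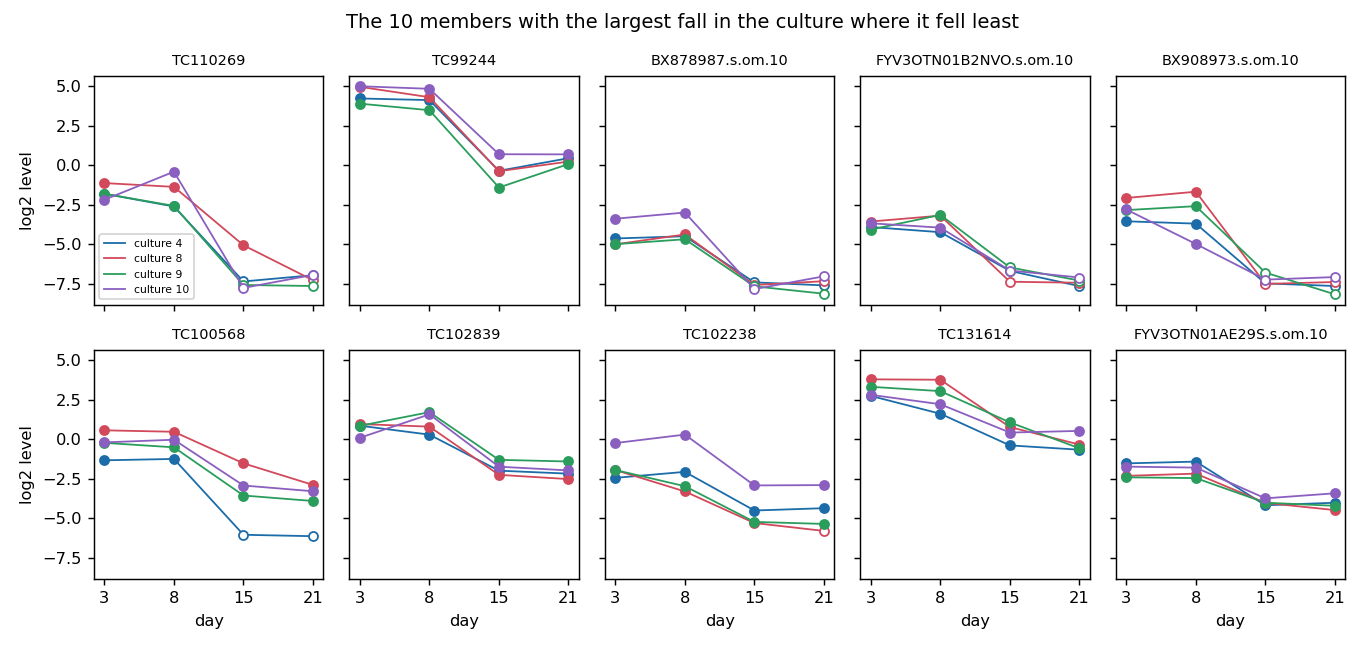
Log2 level relative to the 75th percentile of the array (vertical axis) against day (horizontal axis) for the 10 members of highest rank, 1 line per culture. Filled points were well above background and open points were not; TC99244 stayed measurable on all 16 arrays, whereas BX908973.s.om.10 had no filled point at days 15 and 21.

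Of the 150 members, 108 were well above background on all 16 arrays, 121 on all 4 arrays of day 15 and 109 on all 4 arrays of day 21. In the members measured on all arrays the late minus early difference had a median of -1.51, against -1.61 over the 148.

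The choice of members was repeated with 1 culture left out, and the 150 probes chosen on the other 3 were then scored in that culture, which had played no part in choosing them. Their score was above 0 in 135 probes in culture 4, where 21.0% of eligible probes were above 0. It was above 0 in 141 probes in culture 8 (eligible, 21.8%), in 139 in culture 9 (eligible, 21.2%) and in 113 in culture 10 (eligible, 11.6%). The median score in the culture left out was 0.79, 0.97, 0.95 and 0.50 in this order, and the median over eligible probes -0.41, -0.38, -0.37 and -0.49. The count was lowest in culture 10, where the share of eligible probes above 0 was also the lowest. The count alone therefore does not show that culture 10 followed the others less. The arrays of culture 10 at days 3 and 21 had the smallest shares of spots well above background, 65.5% and 67.0%. The part of this in the scores of culture 10 was not tested. The cultures share the order of sampling, and 1 culture at a time allows no test.

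**Figure D4:**
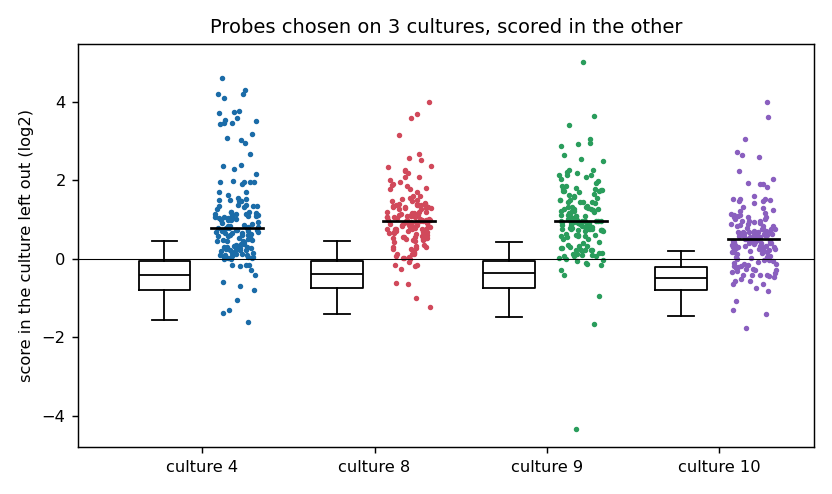
Score in the culture left out (vertical axis, log2) for the 150 probes chosen on the other 3 cultures (points, with a bar at the median) and for all eligible probes (boxes at the quartiles, whiskers at the 5th and 95th percentiles). Medians of the chosen probes were 0.79, 0.97, 0.95 and 0.50 in cultures 4, 8, 9 and 10, above the upper quartile of the eligible probes in each.

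Whether the members went on falling from day 15 to day 21 was not fixed by the rule, which treats both days alike. No member and no other probe was called in either direction (limma, adjusted p below 0.02 and ratio above 3; 0% of 42541 probes). The median of day 21 minus day 15 was -0.30 over members and -0.03 over all tested probes. At an unadjusted p below 0.05, 17 of the 148 members were lower at day 21, where 2% of tested probes were, and no member was higher, where 1.47% of tested probes were. With culture as a block, 30 members were lower against 4.64% of tested probes, and 1 was higher against 2.7%. Without culture 9, 8 members were lower against 1.19% of tested probes.

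The day 21 mean was below the day 15 mean in 125 of the 148 members in the fit (54.7% of tested probes). Day 21 was below day 15 in all 4 cultures in 59 of the 150 members (12% of tested probes). Day 21 was above day 15 in all 4 cultures in no member. The share of tested probes with that order was not counted, so nothing is read from this. The medians by culture were -0.31 in culture 4, -0.47 in culture 8, -0.34 in culture 9 and -0.10 in culture 10. The median was -0.05 after normexp background correction, where that of all tested probes was 0.07, and -0.25 in the 108 members measured on all arrays. Within slide 1 it was -0.63 and within slide 2 0.10; each slide held cultures 4 and 9 at one of these days and cultures 8 and 10 at the other, so this difference includes that between cultures.

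**Figure D5:**
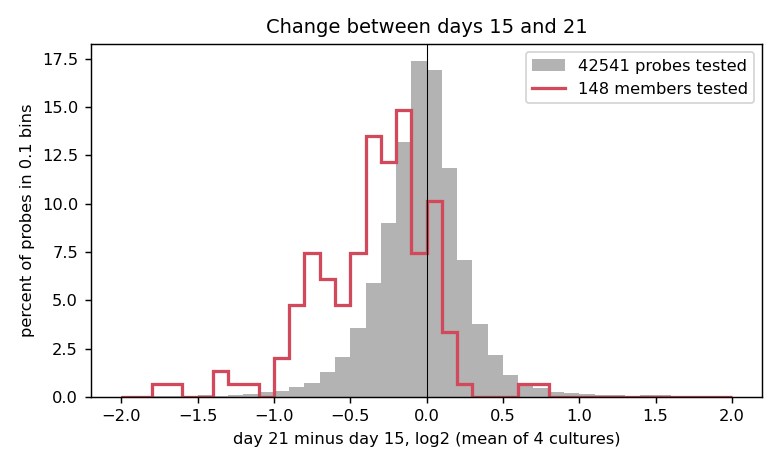
Percent of probes (vertical axis) by day 21 minus day 15 (horizontal axis, log2, bins of 0.1) for the 148 members in the fit (red line) and the 42541 tested probes (grey). Tested probes beyond the axis are counted in the end bins; the members' median is -0.30 and that of all tested probes -0.03.

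The lower members with the smallest p were mostly dim by day 21. GBPNQUD01EN7J5.s.om.10 was at -4.09, -3.86, -4.21 and -3.82 at day 15 and at -4.79, -4.63, -4.84 and -4.66 at day 21, a difference of -0.74 ± 0.14 (SE; limma, adjusted p = 0.93 over all probes). All day 21 values were below all day 15 values, and 3 of the 4 were well above background. FYV3OTN02FWUVR.s.om.10 had a measured difference of -1.32 ± 0.30, but 0 arrays of day 21 were well above background, so its day 21 level is only a bound. GBPNQUD01ATS3E.s.om.10 differed by -0.72 ± 0.19, with 1 array of day 21 well above background. F3GS49K01CNN6P.s.om.10, measured on all arrays, differed by -0.61 ± 0.18, from between -3.79 and -3.37 to between -4.56 and -4.10. In each of these 4 members day 21 was lower in 4 of 4 cultures, and none passed the adjustment. With culture as a block, which pairs the days, their adjusted p in the order given was 0.47, 0.47, 0.56 and 0.62 (limma). After normexp correction the differences of these members, in the order given, were -0.03, -0.02, 0.12 and -0.05.

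In the other direction, TC99244 differed by 0.72 ± 0.39 between days 15 and 21 and was higher in 3 of 4 cultures (limma, adjusted p = 1.00, and 0.62 with culture as a block). CR363140.s.om.10 (0.60 ± 0.63), GBPNQUD01BTS44.s.om.10 (0.14 ± 0.16) and TC113907 (0.25 ± 0.40) followed. CR363140.s.om.10 was not well above background on either day, so its values there have no order.

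The level of one culture against another was not part of the rule, although the rule set a lowest fall for each culture and no highest one. The range between the highest and lowest culture mean had a median of 0.87 over members, 0.50 over all tested probes and 0.42 over eligible probes. With day in the model, limma called 1727 probes (4.06%) as different between cultures at an adjusted p below 0.02 and a ratio above 3, and 19 of the 148 members (12.8%). The 4 arrays of a culture are repeated samples of 1 pool of cells, so these p-values measure cultures against the spread of arrays within a culture. Without culture 4, 2 members and 0.547% of tested probes were called, and without culture 8, 9 or 10 the members called were 8, 10 and 11, against 1.72%, 2.45% and 3.29% of tested probes.

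The cultures were also compared within each phase. In a fit to days 3 and 8 alone no member and no other probe was called, with 40 members (27.0%) and 10.6% of tested probes at an unadjusted p below 0.05. In a fit to days 15 and 21 alone 24 members (16.2%) were called and 4.97% of tested probes. Whether cultures differed more in the late days than in the early days was not tested. Arrays of one culture deviated together with a correlation across probes of 0.48 to 0.70 between days 15 and 21 and of -0.14 to 0.39 between days 3 and 8, and the part of this in the counts was not tested. In order of day, the SD between cultures had a median over members of 0.34, 0.52, 0.51 and 0.55, against 0.26, 0.29, 0.25 and 0.30 over eligible probes. Culture 10 had the highest mean in 71 members, culture 8 in 41, culture 4 in 25 and culture 9 in 13.

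TC110828 and F6VG15V01DMEQT.s.om.10 had the largest ranges between culture means, and their cultures lay closer together at days 3 and 8 than at days 15 and 21. TC110828 was at 2.14, 3.63, 3.02 and 3.17 at day 3 and at 2.27, 3.40, 3.09 and 3.38 at day 8. At day 15 it was at -2.17, 1.44, -0.11 and 2.19, and at day 21 at -3.17, 0.24, -1.04 and 2.19. It fell in every culture, by a score of 4.20 in culture 4 and 0.94 in culture 10, and the late arrays spanned over 5 log2 units. The range between culture means was 2.96 (limma, adjusted p = 0.015; 0.021 with slide as a block, 0.17 without culture 4, 0.049 without culture 8 and 0.033 without culture 9).

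F6VG15V01DMEQT.s.om.10 had the same order of cultures late in the course, at -2.17, 1.56, -0.69 and 2.20 at day 15 and at -3.42, 0.45, -1.55 and 2.22 at day 21. At day 8 it had been at 1.91, 2.77, 1.43 and 3.07. Its range between culture means was 3.15 (limma, adjusted p = 0.0078; 0.032, 0.031 and 0.024 without culture 8, 9 or 10). Each of these probes was measured above background on every array, and the files do not say whether they measure 1 gene. TC128576, with a range of 2.86 (limma, adjusted p = 0.0079), differed through culture 4, which was at -0.03, 0.74, -2.08 and -2.74 in order of day. The other cultures were between -2.56 and -0.79 early and between -7.32 and -3.34 late. TC128576 was not well above background in culture 9 at day 15 and in cultures 8, 9 and 10 at day 21. Its range between culture means therefore rests partly on values at background. Without culture 4 the range of TC128576 was 0.58 (adjusted p = 0.70).

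At the other end, CU070669.s.om.10, F3GS49K01CNN6P.s.om.10 and TC123792 had nearly equal culture means, with ranges of 0.08, 0.08 and 0.15. CU070669.s.om.10 was at 2.80, 2.83, 2.69 and 2.45 at day 3 and at 2.86, 2.56, 2.59 and 2.69 at day 8. It was at 1.00, 1.63, 1.93 and 1.94 at day 15 and between 1.17 and 1.83 at day 21, and the 2 phases did not overlap. The late mean was 2.18-fold below the early mean, a moderate fall seen on bright spots in all cultures.

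One member had a second probe for the same sequence in the design set that the rule left out. This member, BX081858.s.om.10, was singled out after its values were seen. In order of day, the member probe had means of 0.80 ± 0.50, 0.75 ± 0.59, -1.74 ± 1.53 and -2.57 ± 2.19 (SD, n = 4). The second probe had -3.30 ± 0.30, -3.73 ± 0.73, -5.47 ± 1.42 and -5.99 ± 1.08, with 11 of 16 arrays well above background. Both fell in every culture. The scores in cultures 4, 8, 9 and 10 were 3.52, 2.34, 2.54 and 0.53 for the member and 3.14, 1.15, 0.62 and 0.75 for the second probe.

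The probes with readable names were set against the same conditions. Of the 224 probes of the design set that was left out, 78 had a readable name or accession, and 27 of these met the other conditions. One of the 27, AY319391.1, scored above 0 in all 4 cultures, with a lowest score of 0.38 that lay under that of the last member. No readable probe reached the limit, and 6 of the 74 probes of that set that met the other conditions did. The probe named myod1, for the myogenic transcription factor MyoD, scored 2.07 in culture 4, 0.21 in culture 8, 0.37 in culture 9 and -0.81 in culture 10. Its day 8 mean was -1.76 ± 2.44 (SD, n = 4). The probe named myogenine, well above background on all 16 arrays, scored between -0.98 and -0.43. Those named Pax7, myf5 and mrf4 were well above background on 2, 2 and 1 of 16 arrays. The probe named PSMA1, for a subunit of the proteasome, stayed level, at 5.32 ± 0.23, 5.09 ± 0.19, 4.96 ± 0.08 and 4.98 ± 0.16 in order of day (SD, n = 4). The probe named PPARg, for the nuclear receptor that drives adipocyte differentiation, had 0 of 16 arrays well above background. A single probe without signal cannot show that its gene was not expressed. The study reports that the protein, measured by Western blot, rose during culture of these cells and stayed raised.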

How the data were processed

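RNA from 4 cultures at days 3, 8, 15 and 21 was labelled with Cy3 and hybridised to 16 one-colour Agilent arrays. Spot intensities were read by the authors in Agilent Feature Extraction 10.7.3.1, per the file headers, and deposited as background-subtracted intensities. They also deposited a table of log2 values, which equals log2 of each array's processed signal shifted by 1 constant per array (within 0.001 for 100% of the probes compared). No gene annotation of the members was used.

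Members were chosen on the deposited log2 table. All other values are log2 of the processed signal minus that array's 75th percentile (518 to 881 signal units). Control spots and 6 to 272 outlier spots per array were left out, and spots of a probe were averaged. Of 60195 probes, 1050 lacked a value. Those with every array of some day well above background, 42541 in number, were fitted with limma 3.58.1 in R 4.3.3, with 1 mean per day, and called where the ratio exceeded 3 and the p adjusted by Benjamini-Hochberg was below 0.02. Differences between cultures were tested with limma's moderated F. Python 3.11.15, numpy 2.4.6, pandas 2.3.3 and matplotlib 3.10.9 were used for the rest. The fits were also run on simulated data in which arrays of one culture did not deviate together, unlike the real arrays. Nothing is read from that run here.

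The members and lists were chosen with earlier results of these data known. Named are the 10 members of highest rank, the 2 probes on each side of the limit, the 4 members with the smallest p in each direction between days 15 and 21, and the 3 with the largest and the 3 with the smallest difference between cultures. The other probes named are the pair of members without a full set of values, BX081858.s.om.10 and the probes with readable names or accessions, chosen after their values were seen.

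Arrays of one culture share 1 pool of cells, which makes the design paired by culture. Same-culture deviations correlated by 0.48 to 0.70 between days 15 and 21, by 0.47 to 0.58 between days 8 and 15 and by -0.14 to 0.39 between days 3 and 8. Alternatives were quantile normalization, a percentile over probes measured on all arrays, the deposited values, normexp correction with an offset of 50, slide as a block, stricter and no filters on dim probes, culture as a replicate block, other versions of the rule and leaving out each culture.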

Additional observations from a re-analysis of the deposited data

Results flagged for a closer look

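Values of the named members and of the median score were compared within groups of 4 cultures by the gap of the highest or lowest culture to its neighbour, and 4 of 97 groups had a gap past the critical value for 4 samples. Chance would flag about 1 in 20 independent groups that were not chosen by their values. Here the probes were chosen by their values and several groups share a probe, so nothing about chance is read from the count. TC110269 was at -5.07 in culture 8 at day 15, with the other cultures between -7.76 and -7.35. Of these, only the array of culture 8 was well above background. TC102839 was at 0.087 in culture 10 at day 3, with the others between 0.84 and 0.95. F3GS49K01CNN6P.s.om.10 was at -4.56 in culture 4 at day 21, with the others between -4.15 and -4.10. The median score over members was 0.76 in culture 10 and between 1.06 and 1.12 in the other cultures.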

How the results depend on the processing

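Of the summary values, 174 kept their direction and stayed within 1.5 times or 1 SD of the values given, and 53 did not. The 174 include the counts of calls for day 21 against day 15, which stayed at 0 under each alternative and have no direction. They also include medians over members that taking culture as a block cannot change. The 174 therefore do not measure how robust the results are. After normexp correction, calls fell to 440 probes and 35 members for late against early days (median -1.12) and to 56 and 12 for day 15 against day 8 (median -0.97). At day 21 against day 15 they fell to 241 probes and 6 members at an unadjusted p below 0.05 (median -0.047), and between cultures to 1029 and 10. With only the probes measured above background on all 16 arrays, which are fewer, 568 probes and 49 members were called lower in the late days and 82 and 16 at day 15. There, 10 members were lower at day 21 at an unadjusted p below 0.05 and 12 differed between cultures. With no filter on dim probes, 81 probes and 19 members were called lower at day 15, and 12 members differed between cultures. With only days 3 and 8, 0 probes and 0 members differed between cultures.

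With the replicate block, which pairs the arrays of a culture, 282 probes and 45 members were called lower at day 15 than at day 8. Between days 15 and 21, 1972 probes and 30 members were lower and 1149 probes and 1 member higher at an unadjusted p below 0.05. The block changed no other summary value by over 1.5 times.

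Leaving out each culture gave 5 to 220 probes and 3 to 31 members called lower at day 15 than at day 8. Between days 15 and 21 it gave 517 to 1309 probes and 8 to 15 members lower, and 268 to 888 probes and 0 to 1 member higher, at an unadjusted p below 0.05. Between cultures it gave 237 to 1464 probes and 2 to 11 members. CR363140.s.om.10 was lower at day 21 by -0.065 without culture 10 (range with a culture left out, -0.065 to 1.07), but it was not well above background on either day and these values have no order; GBPNQUD01ATS3E.s.om.10 was higher by 0.12 after normexp correction.

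The median over members of the mean score was 1.03. It was 0.82 after normexp correction, 0.83 with early means within 0.25, 1.23 with 100 probes, 0.82 with 300 probes, and 1.09 to 1.30 with a culture left out. Of the 150 members, 130 were chosen again after quantile normalization, 131 from the 75th percentile values, 81 after normexp correction, 73 with early means within 0.25 and 75 without culture 10. Dim probes limit the folds, since 108 of the 150 members were well above background on every array. Where no value shows why a result moved, the cause was not tested.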
